A study of Mus musculus with 14 samples.

Results

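Fibro-adipogenic progenitors (FAPs), the mesenchymal stromal cells of skeletal muscle, are recognised and subdivided by a small set of genes, of which 10 are described here: Pdgfra, Ly6a, Cd34, Thy1, Vcam1, Dpp4, Pi16, Hic1, Osr1 and Clec3b. They were taken by gene symbol from both deposited tables and all 10 were found, among 56953 genes listed after BaCl2 injury and 14330 genes listed after glycerol injury. All 10 passed the filter on low counts after BaCl2, which 20119 genes passed. FAPs were purified with magnetic beads from the injured tibialis anterior (TA) muscle of mice labelled SMA, taken here to mean spinal muscular atrophy, or wild type (WT), 3 days after injury with BaCl2 or with glycerol, and their bulk RNA was sequenced. BaCl2 destroys muscle fibres and is followed by regeneration, whereas after glycerol more fat forms. There were 3 SMA and 3 WT libraries after BaCl2, and 4 SMA and 4 WT libraries after glycerol, 14 in all, with no uninjured muscle. The labels give neither the SMA allele, the age or strain of the mice, nor the antibodies of the bead sort, so it is not known whether any marker described here was itself used to collect the cells.

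Pdgfra encodes the receptor for platelet-derived growth factor by which FAPs are defined, and Ly6a encodes Sca-1, the surface antigen most often paired with it in sorting mouse FAPs. Cd34 and Thy1 encode further surface proteins of stromal cells, and Vcam1 encodes an adhesion molecule that FAPs take up in particular after injury. Pi16, Dpp4 and Clec3b mark fibroblasts of the outer, adventitial layer around vessels and fascia, while Hic1 and Osr1 encode transcription factors of quiescent and of developing or injury-activated mesenchymal progenitors.

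Of these 10 genes, Vcam1 and Ly6a were lower in SMA than in WT FAPs after BaCl2, by about the same amount, and the other 8 did not pass the test. After glycerol 0 of 10 passed. The difference between SMA and WT itself differed between the injuries for Clec3b and Hic1, although neither gene passed within either injury. A single glycerol library of the SMA group carried the highest Pi16, Dpp4, Clec3b and Cd34 of all 8. A single WT library among them carried the highest Pdgfra, Thy1, Hic1 and Osr1.

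The BaCl2 libraries held 97715538 to 136437776 counts. Their values are given in CPM, counts scaled to library size with the TMM method of edgeR, of which 1 stands for 97.7 counts in the shallowest library, and the lowest count of any marker was 552, for Dpp4. The glycerol values had been normalized before deposit, sum to 71414573 to 76591429 per library, and carry no record of depth. The labels name no batch. The injuries were deposited separately and in different units, so injury cannot be told apart from processing or from any batch. The labels do not say that the libraries of a group came from separate animals, and p-values therefore measure the spread between libraries, which may be technical.

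The order of the markers by level was the same in WT FAPs after either injury. Levels per kb of exon (lengths from GENCODE vM21, which may differ from the annotation behind the tables) ran from Ly6a, at 313 ± 46.3 CPM per kb (SD, n = 3) after BaCl2, through Thy1 (123 ± 9.13), Pdgfra (89.3 ± 6.37), Clec3b (45.5 ± 7.0), Vcam1 (40.0 ± 2.95), Cd34 (24.6 ± 3.93), Hic1 (20.5 ± 1.05) and Osr1 (16.8 ± 0.321) down to Pi16 (1.26 ± 0.432) and Dpp4 (0.936 ± 0.167). Neighbours in that order whose means ± SD overlapped after BaCl2 were Clec3b and Vcam1, Cd34 and Hic1, and Pi16 and Dpp4, and after glycerol Clec3b and Vcam1, and Vcam1 and Cd34. After glycerol the same order ran from Ly6a at 37760 ± 8063 normalized counts per kb (SD, n = 4) and Thy1 at 8390 ± 298 to Pi16 at 330.1 ± 134.7 and Dpp4 at 127 ± 15.9. Pdgfra, the defining receptor, was thus abundant in every library, and the adventitial markers Pi16 and Dpp4 were the least abundant of the 10.

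The promoters of Pi16 and Dpp4 are shown because these 2 genes share a pattern across the glycerol libraries described further on. Both are the 250 bases upstream of the RefSeq start (build GRCm38.p6), written 5′ to 3′ on the gene's own strand. Pi16 lies on the plus strand at chr17:29318632-29318881 and Dpp4 on the minus strand at chr2:62412232-62412481. Capitals mark the letters TATAAA and CCAAT, searched on both strands.
Pi16: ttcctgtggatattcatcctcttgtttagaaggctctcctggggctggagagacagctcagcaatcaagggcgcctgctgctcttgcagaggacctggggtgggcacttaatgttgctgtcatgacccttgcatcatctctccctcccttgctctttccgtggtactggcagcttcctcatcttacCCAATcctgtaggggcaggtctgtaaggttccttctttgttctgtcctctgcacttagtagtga
Dpp4: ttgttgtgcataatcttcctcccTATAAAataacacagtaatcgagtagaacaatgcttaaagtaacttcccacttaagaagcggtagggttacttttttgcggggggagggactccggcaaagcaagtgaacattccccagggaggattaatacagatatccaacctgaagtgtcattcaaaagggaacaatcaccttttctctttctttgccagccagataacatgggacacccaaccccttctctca
Pi16 holds CCAAT 64 bases before its start, as 33.8% of 32851 RefSeq promoter windows of this length do somewhere. Dpp4 holds TATAAA 227 bases before its start, which 12.4% of windows hold somewhere, so the 2 promoters share neither motif. The letters TGANTCA (in 6.75% of windows) and TTCNNNGAA (in 7.02%), also searched on both strands, are in neither window. RefSeq promoter entries matched 5 of the 10 markers (Pdgfra, Cd34, Dpp4, Pi16 and Hic1).

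After BaCl2, Pdgfra stood at 714, 1015 and 876 CPM in SMA libraries 1, 2 and 3 and at 822, 923 and 940 CPM in WT libraries 1, 2 and 3. The groups overlapped, with the lowest and the highest value both in SMA, and the log2 fold change of SMA over WT was -0.04 (SE 0.11, edgeR adjusted p = 0.889). The defining receptor therefore did not differ detectably between the genotypes at this precision.

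Vcam1 fell in SMA FAPs after BaCl2. Its values were 246, 267 and 254 CPM in the 3 SMA libraries and 329, 382 and 354 CPM in the 3 WT libraries. The highest SMA library lay below the lowest WT library, and the SMA libraries differed from one another by less than the WT libraries did. The log2 fold change was -0.47 (SE 0.07, n = 3 each, edgeR adjusted p = 0.00779), and the two-sided exact permutation p was 0.1, the smallest that 3 against 3 libraries allow. The call held without each library in turn except WT library 3 (adjusted p = 0.0604).

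Ly6a fell by a like amount. It stood at 294, 278 and 230 CPM in the SMA libraries and at 327, 437 and 367 CPM in the WT libraries, again with no overlap. The log2 fold change was -0.50 (SE 0.11, n = 3 each, edgeR adjusted p = 0.0407, exact permutation p = 0.1). This call rested on single libraries: it ended without SMA library 2 (0.127), SMA library 3 (0.0515), WT library 2 (0.157) or WT library 3 (0.136). Of the 50-base words of Ly6a transcripts in GENCODE vM21, 18.97% also occur in another gene, most often its neighbour in the Ly6 family Ly6c1, so the split of reads between these genes is uncertain. Ly6c1 itself was at -0.37 after BaCl2 (adjusted p = 0.153).

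With Vcam1 and Ly6a, 2 of 10 markers were called after BaCl2, both lower. Over all genes tested 4.29% were called, and 1.56% were called lower. The median log2 fold change of the 10 markers was -0.06, against 0.00 over all genes. Without SMA libraries 1 and 2, which leaves a lone SMA library that is assumed to vary like the WT libraries, 0 of 10 were called, with Vcam1 at -0.48 (adjusted p = 0.075) and Ly6a at -0.71 (adjusted p = 0.0682).

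Thy1, the gene for the glycoprotein CD90, also separated the genotypes without passing. It stood at 224, 314 and 320 CPM in SMA and at 357, 398 and 347 CPM in WT libraries, with every SMA library the lower (log2 fold change -0.36, SE 0.12, edgeR adjusted p = 0.135, exact permutation p = 0.1). Thy1, Vcam1 and Ly6a were the 3 of 10 markers whose genotypes did not overlap after BaCl2, all lower in SMA, where 25.3% of all genes did not overlap and 13.1% were lower in this way. Thy1 passed with DESeq2 (adjusted p = 0.0257). In the authors' deposited table Thy1 is called lower (adjusted p = 0.0428), as are Vcam1, Ly6a and Clec3b, or 4 of 10 markers, where 13.8% of all genes with a p are called.

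**Figure D1:**
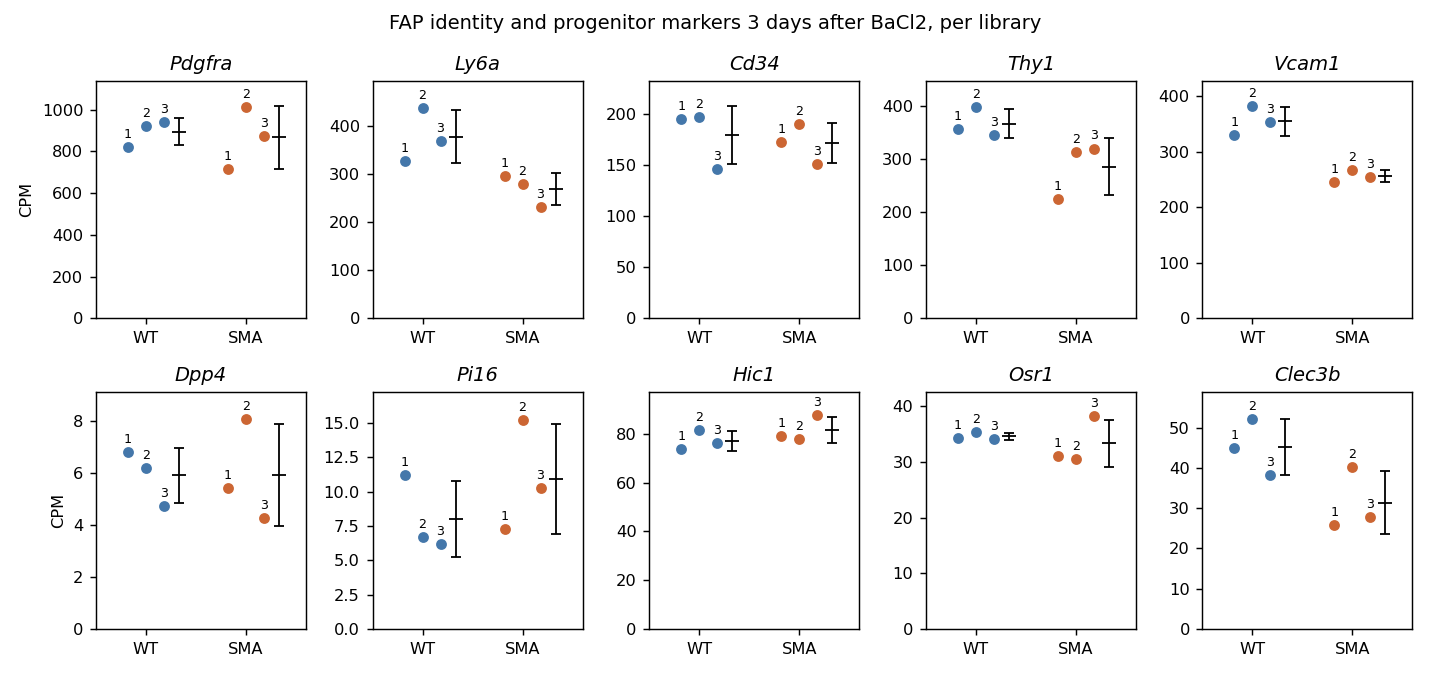
Each panel plots 1 marker after BaCl2 in CPM (vertical axis from 0), with 1 point per library numbered by replicate, WT in blue and SMA in orange, and the mean ± SD in black. Vcam1, Ly6a and Thy1 show every SMA library below every WT library, while Pdgfra, Cd34, Dpp4, Pi16, Hic1, Osr1 and Clec3b overlap.

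Among the adventitial markers after BaCl2, Clec3b, which encodes the plasminogen-binding protein tetranectin, stood at 25.9, 40.3 and 27.9 CPM in SMA and at 45.0, 52.2 and 38.3 CPM in WT libraries. SMA library 2 lay above WT library 3, so the groups overlapped (log2 fold change -0.52, SE 0.16, edgeR adjusted p = 0.105). Without SMA library 2 the change passed (-0.74, adjusted p = 0.0437), the 1 of 6 fits with 1 library left out to do so (edgeR adjusted p up to 0.327). Clec3b is called lower in the authors' deposited table (adjusted p = 0.018).

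Pi16, a peptidase inhibitor family gene, ranged from 7.31 to 15.2 CPM in SMA and from 6.16 to 11.2 CPM in WT libraries (log2 fold change 0.45, SE 0.27, edgeR adjusted p = 0.415). Dpp4, which encodes the membrane peptidase CD26, ranged from 4.27 to 8.09 CPM in SMA and from 4.75 to 6.80 CPM in WT libraries (0.00, adjusted p = 0.997). SMA library 2 was the highest of the 6 for both. Cd34 ranged from 151 to 190 CPM in SMA and from 146 to 197 CPM in WT libraries (-0.07, adjusted p = 0.83).

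The transcription factors spanned the least of the 10 over the 6 BaCl2 libraries, though not over the glycerol libraries. Hic1 stood at 79.1, 77.8 and 87.7 CPM in SMA and at 73.7, 81.4 and 76.0 CPM in WT libraries, a span of 1.19-fold over all 6 (log2 fold change 0.08, edgeR adjusted p = 0.573). Osr1 ranged from 30.6 to 38.3 CPM in SMA and from 34.1 to 35.4 CPM in WT libraries (-0.05, adjusted p = 0.807). In both, SMA library 3 was the highest of the 6.

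After glycerol, 0 of 10 markers passed, where limma called 2.87% of all genes. Of the 10, 3 had an unadjusted p under 0.05 (Hic1, Thy1 and Clec3b), near the 23.3% of all genes that did. The median log2 fold change was 0.05 against 0.00 over all genes. Pdgfra again overlapped, at 62001, 59457, 77327 and 64587 normalized counts in SMA libraries 1 to 4 and at 64098, 77915, 68165 and 71912 in WT libraries 1 to 4 (log2 fold change -0.10, SE 0.09, limma adjusted p = 0.534). All glycerol fold changes are on the log2(value + 1) scale.

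Hic1 came nearest to the threshold. It stood at 3560, 3700, 3615 and 3211 normalized counts in SMA and at 4034, 4539, 4276 and 4050 in WT libraries, so the groups did not overlap. The log2 fold change was -0.26 (SE 0.06, n = 4 each, limma adjusted p = 0.0555), and the exact permutation p was 0.0286, the smallest that 4 against 4 libraries allow. It passed without SMA library 3 (-0.28, adjusted p = 0.035), the 1 of 8 fits with 1 library left out to do so (limma adjusted p up to 0.154). The authors' deposited table calls Hic1 lower (adjusted p = 0.0046).

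Thy1 likewise separated the genotypes after glycerol. It stood at 23609, 18809, 23269 and 20814 normalized counts in SMA and at 25247, 26013, 23888 and 25365 in WT libraries (log2 fold change -0.22, SE 0.07, limma adjusted p = 0.119, exact permutation p = 0.0286). Hic1 and Thy1 were the 2 of 10 whose groups did not overlap, both lower in SMA, where 14.1% of all genes did not overlap and 7.54% were lower in this way. Thy1 was thus the 1 marker of the 10 with every SMA library below every WT library after both injuries, as 1.40% of the 13960 genes fitted in both were, and it passed in neither.

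Clec3b stood at 4435, 4792, 6073 and 9281 normalized counts in SMA and at 2557, 4880, 2967 and 3411 in WT libraries. The SMA libraries all lay above 3 of the WT libraries, and WT library 2 fell among them. The log2 fold change was 0.81 (SE 0.25, limma adjusted p = 0.107, exact permutation p = 0.0857), and 0.59 without SMA library 4 (adjusted p = 0.19). The authors' deposited table calls it higher (adjusted p = 0.0141), so that 2 of 10 markers are called there (Clec3b and Hic1), where 12.5% of all genes with a p are called and Dpp4 has none.

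Ly6a, which was lower in SMA after BaCl2, stood at 44951, 43511, 60582 and 58380 normalized counts in SMA and at 34794, 58264, 43137 and 45794 in WT libraries after glycerol, with wide overlap (log2 fold change 0.20, limma adjusted p = 0.504). Cd34 stood at 19599, 18703, 24965 and 29965 in SMA and at 17831, 22138, 15145 and 19130 in WT libraries (0.32, adjusted p = 0.272). Osr1 ranged from 1083 to 1599 in SMA and from 1354 to 1647 in WT libraries (-0.16, adjusted p = 0.45).

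Vcam1 after glycerol was set by 2 libraries. It stood at 21433, 20523, 30610 and 21733 normalized counts in SMA and at 21625, 23709, 23022 and 42988 in WT libraries, so SMA library 3 and WT library 4 stood apart from the others of their groups. By Dixon's criterion for 1 library apart from the other 3 of its group, 6.26% of all genes had such a library in SMA and 6.04% in WT. The log2 fold change was -0.20 (SE 0.22, limma adjusted p = 0.624), and 0.03 without WT library 4 (adjusted p = 0.922). WT library 4 was also the highest of the 8 for 8 of 12 genes of activated fibroblasts and for 6 of 12 genes of the parenchymal FAP state, where it was the highest for 13.6% of all genes.

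**Figure D2:**
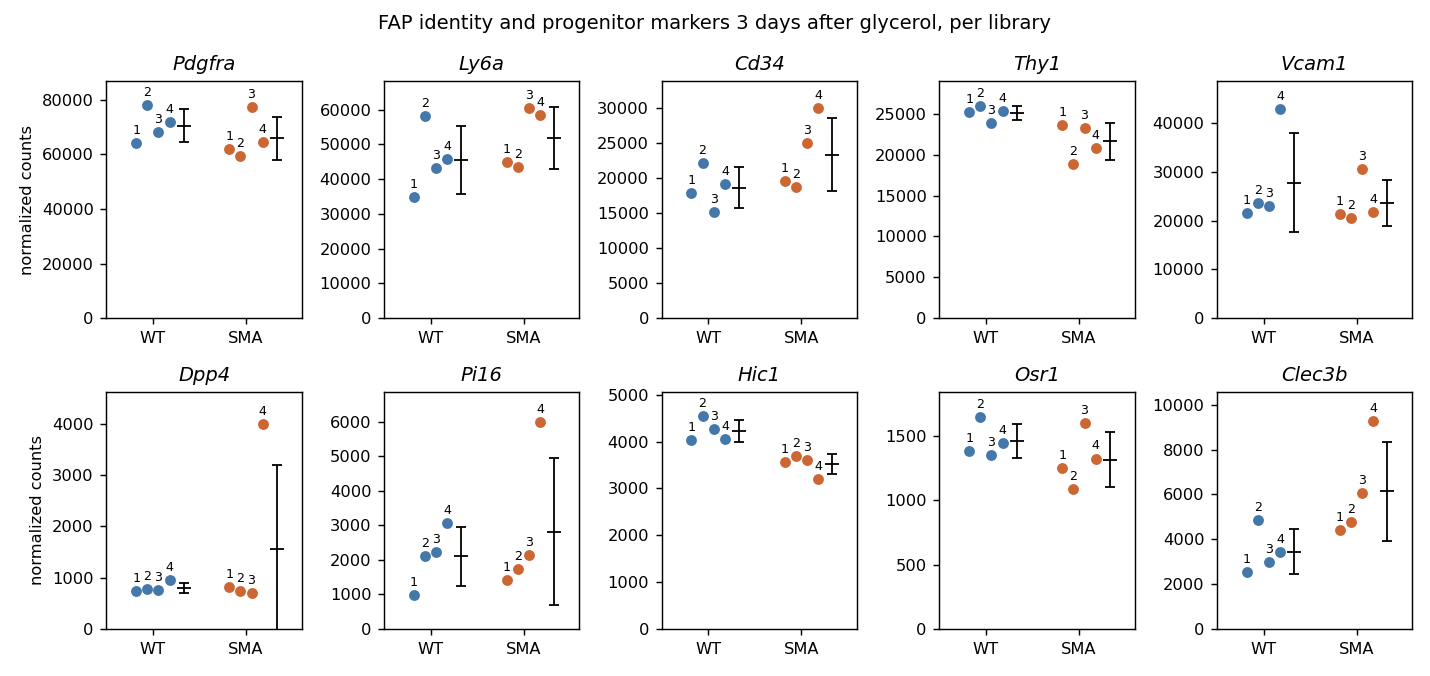
Each panel plots 1 marker after glycerol in the authors' normalized counts (vertical axis from 0), with 1 point per library numbered by replicate, WT in blue and SMA in orange, and the mean ± SD in black (the SD bar of Dpp4 in SMA is cut at 0). Hic1 and Thy1 show no overlap, Dpp4 and Pi16 are highest in SMA library 4, and Vcam1 is highest in WT library 4.

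Pi16 and Dpp4 stood out in SMA library 4 after glycerol. Dpp4 was at 4003 normalized counts there, against 696 to 813 in the other SMA libraries and 735 to 952 in WT libraries. Pi16 was at 5987 there, against 1426 to 2142 in the other SMA libraries and 986 to 3071 in WT libraries. The log2 fold change over all 8 libraries was 0.51 for Dpp4 (SE 0.50, limma adjusted p = 0.584) and 0.29 for Pi16 (SE 0.47, adjusted p = 0.749). Without SMA library 4 both turned below 0, to -0.10 for Dpp4 and -0.16 for Pi16.

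The same library was high for other adventitial fibroblast genes. It was the highest of the 8 for 12 of 16 genes of an adventitial list (75%) and for 4 of the 10 markers (Pi16, Dpp4, Clec3b and Cd34), where it was the highest for 21.3% of all genes. WT library 2 was also the highest for 4 of the 10 markers (Pdgfra, Thy1, Hic1 and Osr1), where it was the highest for 8.76% of all genes. Of the 16 adventitial genes WT library 2 was the highest for 1. Sema3c, which encodes a secreted semaphorin, was at 17580 normalized counts in SMA library 4 and at 2398 to 5866 in the other 7 libraries. Igfbp6, which encodes a binding protein for insulin-like growth factors, was at 11740 there, and at 4777 to 7393 in the other SMA and 3899 to 6280 in WT libraries. Of the 16 adventitial genes 0 were called between the genotypes after glycerol. Both mesothelial markers listed after glycerol were highest in SMA library 4 too, with Krt19 at 432 against 70.7 to 179 elsewhere and Msln at 90.8 against 25.7 to 50.7. SMA library 4 also had the highest sums of macrophage markers (322100 normalized counts) and of neutrophil markers (2359). It was the lowest for 6 of 15 other mesenchymal transcription factor genes, where it was the lowest for 19% of all genes. The part of other cells in the result was not tested.

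**Figure D3:**
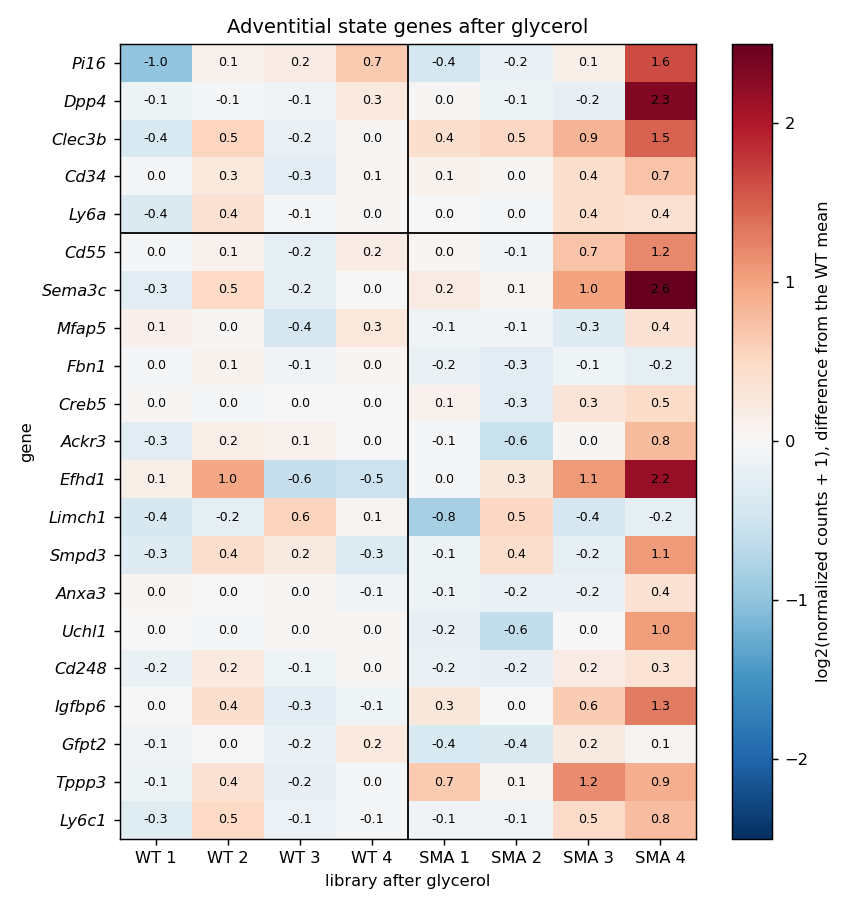
The grid gives, for 5 markers (above the line) and 16 other adventitial genes, the log2(normalized count + 1) of each glycerol library (columns) as its difference from the WT mean, red where higher and blue where lower. The SMA library 4 column is the reddest, with Dpp4, Pi16, Sema3c and Efhd1 among its largest differences.

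To compare the injuries, the genotype effect was expressed as the log2 fold change after glycerol minus that after BaCl2. By the z test on 13960 genes, which takes no account of how few libraries the standard errors come from, 3 of 10 markers differed (Clec3b, Hic1 and Ly6a), where 10.5% of all genes were called. With a t reference and Satterthwaite degrees of freedom from the edgeR and limma fits, an alternative added after the z results were seen, 2 of 10 differed (Clec3b and Hic1), where 3.80% of all genes were called. The stricter result is given beside each z value from all libraries, and fits with a library left out have the z value alone.

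For Clec3b the difference was 1.33 (SE 0.30, z adjusted p = 0.000661, Satterthwaite adjusted p = 0.0262, exact permutation p = 0.00857 over 1400 relabelings of genotype within both injuries). It joined a log2 fold change of -0.52 after BaCl2 with one of 0.81 after glycerol, neither of which passed by itself. For Hic1 the difference was -0.35 (SE 0.09, z adjusted p = 0.00508, Satterthwaite adjusted p = 0.0421, exact permutation p = 0.00571), from 0.08 after BaCl2 to -0.26 after glycerol. For Ly6a it was 0.69 (SE 0.20, z adjusted p = 0.0106, exact permutation p = 0.0314), and it did not pass with the Satterthwaite degrees of freedom (adjusted p = 0.0591).

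For Vcam1, called after BaCl2 alone, the difference was 0.27 with a 95% interval of -0.17 to 0.72 (z adjusted p = 0.49, Satterthwaite adjusted p = 0.535). Its genotype effect was thus not shown to differ between the injuries. Without WT library 4 of the glycerol set the difference was 0.50 (z adjusted p = 0.0136), the 1 of 14 fits with 1 library left out in which it passed by z. For Thy1 the difference was 0.14 with an interval of -0.14 to 0.42, and for Pdgfra -0.06 with an interval of -0.34 to 0.22. The intervals were wide for Dpp4 (-0.57 to 1.57) and Pi16 (-1.22 to 0.90). Without SMA library 4 of the glycerol set the SE of the difference was 0.25 for Dpp4 in place of 0.55, and 0.44 for Pi16 in place of 0.54.

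**Figure D4:**
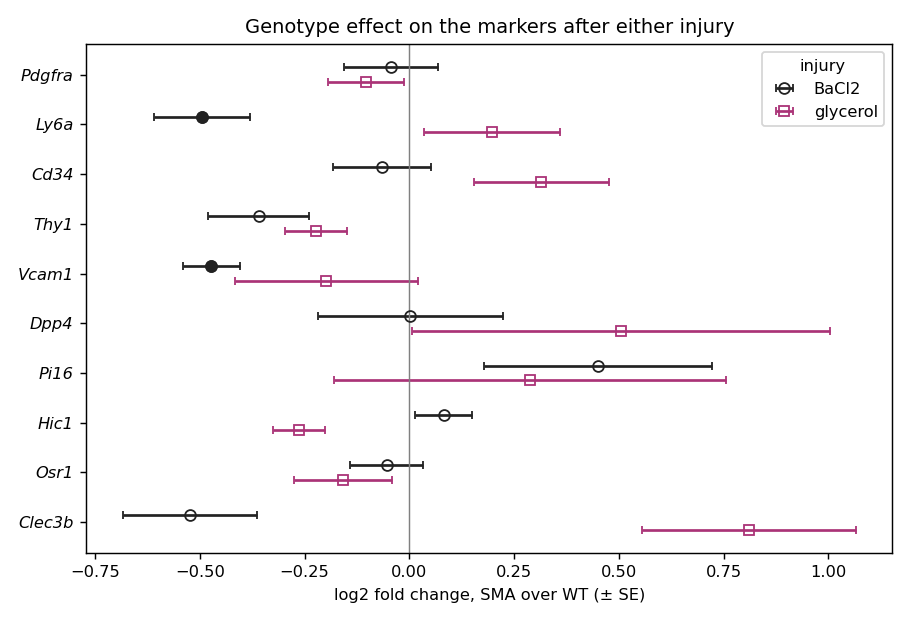
For each marker (rows) the log2 fold change of SMA over WT (horizontal axis) is drawn with its SE after BaCl2 (black circles) and after glycerol (purple squares), filled where the change passed at an adjusted p under 0.05. Vcam1 and Ly6a after BaCl2 are the 2 filled points, and Clec3b has the widest gap between the injuries.

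Each marker was also set against Pdgfra in its own library. In bulk RNA fewer cells of a type and less RNA per cell cannot be told apart. After BaCl2 Thy1, Vcam1 and Clec3b (3 of 9) were lower relative to Pdgfra in every SMA library than in any WT library, where 8.44% of all genes did not overlap on this scale. Vcam1 lay at 26.4% to 34.5% of the Pdgfra value in SMA and at 37.7% to 41.4% in WT libraries. Thy1 and Clec3b separated only narrowly. The highest SMA library was at 36.6% for Thy1 and 4.02% for Clec3b, and the lowest WT library at 36.89% and 4.125%. Ly6a overlapped on this scale, since SMA library 1, low in Pdgfra, was at 41.3% against 39.1% to 47.4% in WT libraries.

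After glycerol Cd34 and Clec3b (2 of 9) were higher relative to Pdgfra in every SMA library than in any WT library, where 6.64% of all genes did not overlap. Clec3b lay at 7.16% to 14.4% of the Pdgfra value in SMA and at 3.99% to 6.27% in WT libraries, and Cd34 at 31.5% to 46.4% in SMA and 22.2% to 28.4% in WT libraries. Hic1 and Thy1, separate by level, overlapped on this scale. Against the mean of 5 stromal genes (Pdgfra, Col1a1, Col3a1, Dcn and Lum) in place of Pdgfra, 0 of 9 separated after glycerol, where 5.72% of all genes did. After BaCl2 3 of 9 did, Vcam1 lower and Hic1 and Osr1 higher, on a scale where 58.0% of all genes separated. Lum, 1 of the 5, was itself called lower in SMA after BaCl2 (-0.33). The log2 difference of SMA from WT was 0.40 for Hic1 and 0.26 for Osr1 against the 5 genes. Against Pdgfra it was 0.14 for Hic1 and -0.005 for Osr1.

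**Figure D5:**
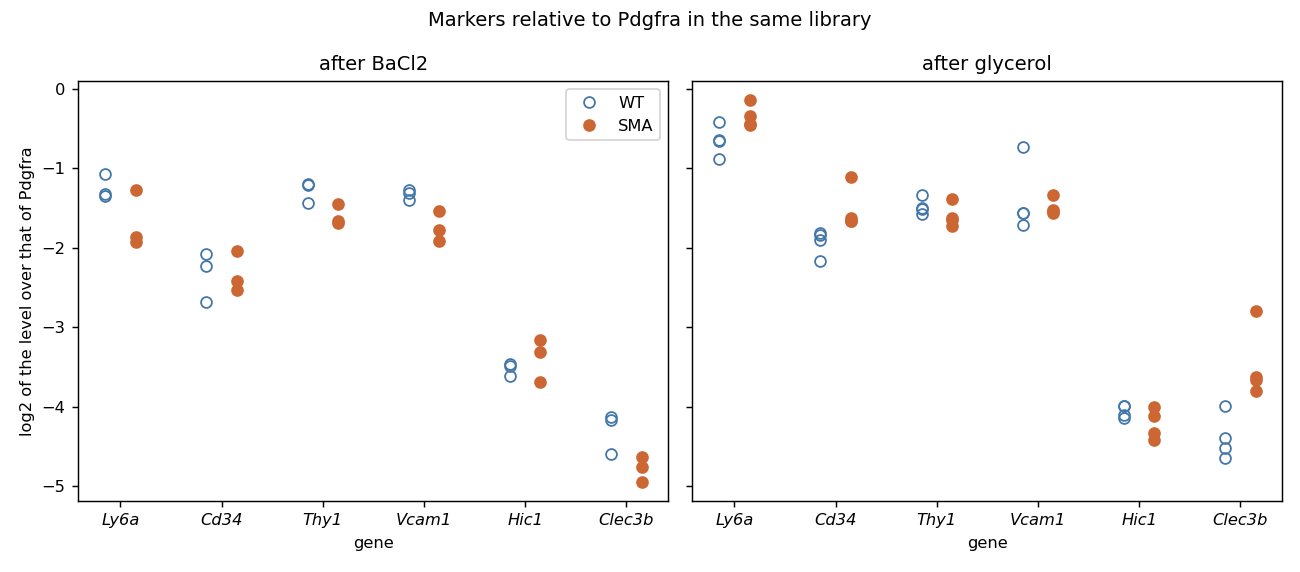
The log2 of each marker's value over the Pdgfra value in the same library (vertical axis) is plotted for 6 markers, with 1 point per library, WT open blue and SMA filled orange, after BaCl2 (left) and glycerol (right). Clec3b lies lower in every SMA library after BaCl2, though only narrowly, and higher in every SMA library after glycerol.

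Genes around the markers were read from lists of the same biology. Of 8 PDGF ligand, receptor and related genes 0 were called after either injury, with Pdgfrb, the second receptor, at -0.31 after BaCl2 (edgeR adjusted p = 0.0835) and -0.26 after glycerol (limma adjusted p = 0.12). Of 15 other mesenchymal transcription factor genes tested after BaCl2, 3 were lower and 0 higher: Twist1 (-0.43, adjusted p = 0.00666), Meox2 (-0.41, adjusted p = 0.0159) and Ebf1 (-0.40, adjusted p = 0.0095). Over all genes tested 4.29% were called, and 1.56% were called lower. The median of the 15 was -0.26, against -0.003 over all genes, and 14 of 15 were negative. Hic1 and Osr1 stood at 0.08 and -0.05. After glycerol 0 of 15 were called (median -0.05).

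Of 14 other FAP surface genes, Ly6e, a further Ly6 family gene, fell after BaCl2 (-0.43, adjusted p = 0.0338) and Alcam, an adhesion molecule gene, rose (0.98, adjusted p = 0.0274). Of 16 adventitial genes 1 was lower, Cd248, which encodes endosialin (-0.38, adjusted p = 0.0162), and 0 were higher. Of 12 parenchymal state genes Penk, which encodes proenkephalin, rose (0.65, adjusted p = 0.0472) and the proteoglycan gene Lum fell (-0.33, adjusted p = 0.0488). Of 12 genes of activated fibroblasts, the smooth muscle actin gene Acta2 fell (-0.45, adjusted p = 0.0429) and the cell cycle inhibitor gene Cdkn1a rose (0.36, adjusted p = 0.0479). These counts after BaCl2 stand beside 4.29% of all genes called, and 1.56% called lower. After glycerol Acta2 was the 1 gene called in these lists (-0.70, limma adjusted p = 0.0364), where 2.87% of all genes were called. Between the injuries 14 of the 76 genes of these lists differed by the z test (18.4%, against 10.5% of all genes) and 4 with the Satterthwaite degrees of freedom (5.26%, against 3.80%).

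Markers of other cells moved with genotype in the same libraries. After BaCl2 18 of 20 macrophage markers were higher in SMA, 0 were lower and none was at 0, and their summed level was 2247 to 3414 CPM in SMA and 1243 to 1732 CPM in WT libraries. After glycerol 5 of 20 were called higher, with sums of 131500 to 322100 normalized counts in SMA and 114600 to 148300 in WT libraries. Over all genes 4.29% were called after BaCl2 and 2.87% after glycerol. The median log2 fold change of the macrophage markers was alike, at 0.95 after BaCl2 and 0.99 after glycerol, where 19 of 20 were positive. After BaCl2 4 of 9 Schwann cell markers, 2 of 6 neutrophil markers and 1 of 4 mesothelial markers tested were called higher too. In these lists 0 genes were called lower, though 3 of the 9 Schwann cell markers had a fold change below 0. Of 11 pericyte and smooth muscle markers Rgs5 was called higher (0.82) and Des (-0.74) and Acta2 lower after BaCl2. The median of the 11 was 0.21, and 7 of them were positive. Their sums were 399 to 477 CPM in SMA and 481 to 493 CPM in WT libraries. Their mean log2 levels relative to WT overlapped, at 0.045 to 0.183 in SMA and -0.167 to 0.168 in WT libraries. After glycerol 1 of 10 was lower (Acta2) and 0 were higher, with sums of 18280 to 20790 normalized counts in SMA and 22960 to 29220 in WT libraries. After glycerol 1 of 6 neutrophil markers (Csf3r, 1.21) and 1 of 4 lymphocyte markers (Cd4, 1.29) tested were called higher, and 0 lower. The other genes of both lists were not called, and 1 in each list had a fold change below 0. The part of these cells in the marker values was not tested.

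Ly6a and Cd34 are also expressed by endothelial cells. Of 15 endothelial markers 0 were called after BaCl2, with a median of 0.47 and sums of 312 to 426 CPM in SMA and 164 to 393 CPM in WT libraries. After glycerol 6 of 15 were lower and 0 higher (median -0.93), with sums of 10780 to 13590 normalized counts in SMA and 17800 to 25900 in WT libraries. Their part in the Ly6a and Cd34 values was not tested. Vcam1 is also a gene of satellite cells, of whose 9 markers tested after BaCl2 1 was lower (Des) and 0 higher, with sums of 232 to 280 CPM in SMA and 258 to 278 CPM in WT libraries.

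By the rule of likeness, which takes the smaller of the Pearson correlations over the 6 BaCl2 and over the 8 glycerol libraries among 7081 genes, the genes nearest to Ly6a were Ly6c1 (0.93 and 0.93), Cd99l2 (0.88 and 0.90) and Lrp3 (0.86 and 0.87). Nearest to Vcam1 were Adgra2 (0.93 and 0.95), F3, the tissue factor gene (0.96 and 0.92), and Ptx3, a pentraxin gene (0.98 and 0.91). Nearest to Pi16 were Tek (0.84 and 0.82), Sema3c (0.82 and 0.78) and Elf1 (0.75 and 0.80), and among the nearest to Pdgfra were Hspg2 (0.88 and 0.87) and Pknox2 (0.85 and 0.89). These values describe libraries that differ in genotype and depth, and the shared Ly6a and Ly6c1 sequence given above enters the first of them. The glycerol correlations of Vcam1 and Pi16 include the libraries that stood apart for these genes. How far those libraries set the correlations was not tested.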

How the data were processed

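RNA of bead-purified FAPs was sequenced with a strand-keeping poly(A) kit, per the labels' protocols. The submitters' processing notes name fastp, Salmon, featureCounts and DESeq2 without version. Their roles, the annotation and the genome build were not given in the sources used here or in any file header. The BaCl2 values are whole-number counts per gene as deposited. The glycerol values are a signal, the authors' normalized counts, and whole reads could not be recovered from them. The log2 fold changes and p-values of the authors' deposited tables are quoted as theirs. The BaCl2 table also has 6 z-score columns, left unused.

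BaCl2 counts were tested with the quasi-likelihood test of edgeR 4.0.16 (TMM factors, filterByExpr) and glycerol values as log2(value + 1) with limma 3.58.1 and a mean-variance trend, in R 4.3.3. P-values were adjusted over all genes by Benjamini and Hochberg, with calls under 0.05. Differences between injuries were tested by z, by t with Satterthwaite degrees of freedom and, for members called by z, by exact permutation, all two-sided, the last 2 added after the data were seen. On simulated data edgeR, limma, the z test and the t form each made a larger share of false calls than the threshold allows, the z test the largest, so the t form is printed beside it. DESeq2 1.42.0, other filters, pseudocounts and scalings, left-out libraries and a replicate block were tried. Named were the 10 markers, up to 4 called genes per list and injury by smallest p, the 3 most alike genes of 4 markers, and marker genes of other cells. A gene that this rule names is not reported here. Other genes (Sema3c, Igfbp6, Efhd1, Krt19, Msln, Ly6c1 and Pdgfrb) were chosen after their values were seen. Members and lists were chosen with earlier results of these data known.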

Additional observations from a re-analysis of the deposited data

Results flagged for a closer look

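In groups of 4 libraries a value was singled out where its gap to the nearest other library was large against the group's range by Dixon's criterion, which chance gives in about 1 of 20 groups. Among the 20 marker groups after glycerol 5 were so singled out, where 6.26% of all genes had such a library in SMA and 6.04% in WT. They were Dpp4 in SMA library 4 (4003 normalized counts, gap 0.965 of the range) and in WT library 4 (952, 0.839), Pi16 in SMA library 4 (5987, 0.843), and Vcam1 in SMA library 3 (30610, 0.88) and in WT library 4 (42988, 0.902). Dpp4 in WT library 4 stood only little above the 735 to 770 of the other WT libraries.

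The genotype effect differed between the injuries by the z test for Clec3b (1.33 on the log2 scale, glycerol minus BaCl2), Ly6a (0.69) and Hic1 (-0.35). Ly6a did not differ with the Satterthwaite degrees of freedom (adjusted p = 0.0591).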

How the results depend on the processing

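Of 430 marker values recomputed under an alternative, 394 kept direction and side of the threshold, 20 turned direction, 8 newly passed and 8 no longer passed. After BaCl2 the 863 calls became 1698 with DESeq2, 1867 without the count filter, 108 without SMA libraries 1 and 2, and 41 to 1577 with 1 library left out. The 2 marker calls became 3 with DESeq2 (Thy1 added), 4 without the filter, 4 in the authors' deposited table, 0 without SMA libraries 1 and 2, and 0 to 2 with 1 library left out. The 10 calls in the context lists became 19 with DESeq2, 27 without the filter, 0 without SMA libraries 1 and 2, and 0 to 21 with 1 library left out. After glycerol the 411 calls became 2 without the trend and 0 to 1645 with 1 library left out, the 0 marker calls became 2 in the authors' deposited table and 0 to 1 with 1 library left out, and the 1 context call became 2 for genes with a mean of at least 100, 2 after median-ratio rescaling, 0 without the trend and 0 to 5 with 1 library left out. The 1470 calls of the difference became 958 with DESeq2, 530 with Satterthwaite degrees of freedom and 1004 to 1969 with 1 library left out, and the 14 context calls became 9, 4 and 8 to 19. The 3 marker calls of the difference became 3 to 4 with 1 library left out. Relative to Pdgfra, 3 to 5 markers separated after BaCl2 and 2 to 3 after glycerol with 1 library left out. Smaller groups separate more readily, and the share of all genes that separated in these fits was not computed. Against 5 stromal genes 0 markers separated after glycerol. The causes were not tested.

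Without SMA libraries 1 and 2, Dpp4 after BaCl2 turned to -0.47 and Osr1 to 0.14. With 1 library left out, fold changes ran after BaCl2 from -0.17 to 0.083 for Pdgfra, -0.19 to 0.025 for Cd34, -0.29 to 0.20 for Dpp4 and -0.16 to 0.0094 for Osr1, and after glycerol from -0.33 to 0.031 for Vcam1, -0.10 to 0.74 for Dpp4 and -0.16 to 0.53 for Pi16. Differences ran from -0.19 to 0.063 for Pdgfra, -0.014 to 0.22 for Thy1, -0.10 to 0.79 for Dpp4 and -0.60 to 0.15 for Pi16. The z calls of Clec3b, Hic1 and Ly6a held in 14 of 14 such fits, and other scalings moved the median gene by at most 0.006.

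Replicate numbers did not pair the libraries (correlations of same-numbered deviations -0.10 to 0.07). With the replicate number as a block, the 863 BaCl2 calls became 1144 and the 10 BaCl2 context calls became 15. In that fit 4 markers were called after BaCl2 (Thy1 at -0.38 and Clec3b at -0.54 added), and Dpp4 turned to -0.031. The glycerol calls became 257 and the glycerol context calls 2. Not every library correlated best with its own number.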
